A study of Solanum lycopersicum with 18 samples.

Results

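The proteinase inhibitors and oxidases described here are products of the wound response of tomato (*Solanum lycopersicum*), and 10 genes were listed for them by identifier. The list holds 5 genes of a proteinase inhibitor II cluster on chromosome 3, 3 proteinase inhibitor I genes on chromosome 9, the lipoxygenase gene *LOXD* and a polyphenol oxidase gene. They were chosen by identifier as outputs of jasmonate signalling, with the authors' *crel* against wild-type values for the same table in view, and those values are not used here. Of these genes, 6 had a row among the 35825 genes of the RNA-seq table, namely all 5 inhibitor II genes and *LOXD*. The other 4 (Solyc09g084470, Solyc09g084480, Solyc09g084490 and Solyc08g074630) had no row in the table as held and were not analysed here.

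RNA was taken from shoot apices with expanding leaves of plants grown for 28 days, in 7 *crel* and 3 wild-type libraries. No wounding or jasmonate treatment of these plants is named in the labels or in the study's methods. The *crel* libraries were labelled *crel-2* (2 libraries), *crel-1* (3 libraries) and *crel-3* (2 libraries), and the wild type was the M82 cultivar. The lines are named as alleles of *CREL*, a gene for a PHD-finger protein of the VERNALIZATION INSENSITIVE 3-LIKE family. *crel-2* is a deletion that removes whole exons, and a supplementary table of the study calls the line labelled *crel-1* here *crel-5* and the line labelled *crel-3* here *crel-4*. The study gives a stop codon for both *crel-1* and *crel-5*, but from different base changes. It gives a small deletion for *crel-3*, and no lesion is given for *crel-4* in the sources used here. The lesions of the lines labelled *crel-1* and *crel-3* are therefore not settled. The series also holds 8 ChIP-seq and input libraries, with which the study compared H3K27me3 between wild type and *crel-2*. For the RNA-seq libraries, the question of the design was how expression differed between *crel* and wild type. The only value of a gene that could be used was the authors' mean normalized count, in which all 10 libraries of both genotypes are pooled. It has no spread and no replicate check, and no difference between *crel* and wild type could be computed from it for any of these genes.

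Proteinase inhibitors of families I and II are small proteins that block the digestive serine proteinases of chewing insects, and tomato leaves are a classic system for their induction by wounding. The signal is jasmonate, a hormone whose synthesis starts from linolenic acid in the chloroplast. Lipoxygenases such as LOXD take part in the first oxidation step of that synthesis, the inhibitors are made late in the response, and polyphenol oxidases turn phenolics into quinones that make plant protein harder to digest.

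*LOXD* (Solyc03g122340.3), the gene of the listed set that acts in hormone synthesis, had a mean normalized count of 1338 over the 10 libraries. That was more than 93.8% of all genes in the table had, as a rank of read counts that takes no account of gene length. The gene was thus well covered by reads in the pooled apices.

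The inhibitor II genes divided into 2 genes with many reads and 3 with few. Solyc03g020040.3 had a mean normalized count of 655.5, above that of 86.8% of all genes. Solyc03g020030.3, annotated by the study as a type-2 proteinase inhibitor, had 129.2, above that of 64.4% of all genes. These were the only 2 of the 5 cluster members with a mean count of at least 10. Solyc03g020080.3 had a mean normalized count of 5.92, Solyc03g020060.3 had 4.21 and Solyc03g020050.3 had 3.79. The means of these 3 genes lay below the median of the table, 32.3, and correspond to sums of 59.2, 42.1 and 37.9 normalized reads over all 10 libraries. Over the whole table, 35.8% of genes had a mean count under 10. The counts were not divided by gene length, so they rank reads and not transcripts. Members of such a cluster can share reads, and how the authors' counting treated reads with several places in the genome is not given in the sources used here, so the division of reads among the 5 genes is uncertain.

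**Figure D1:**
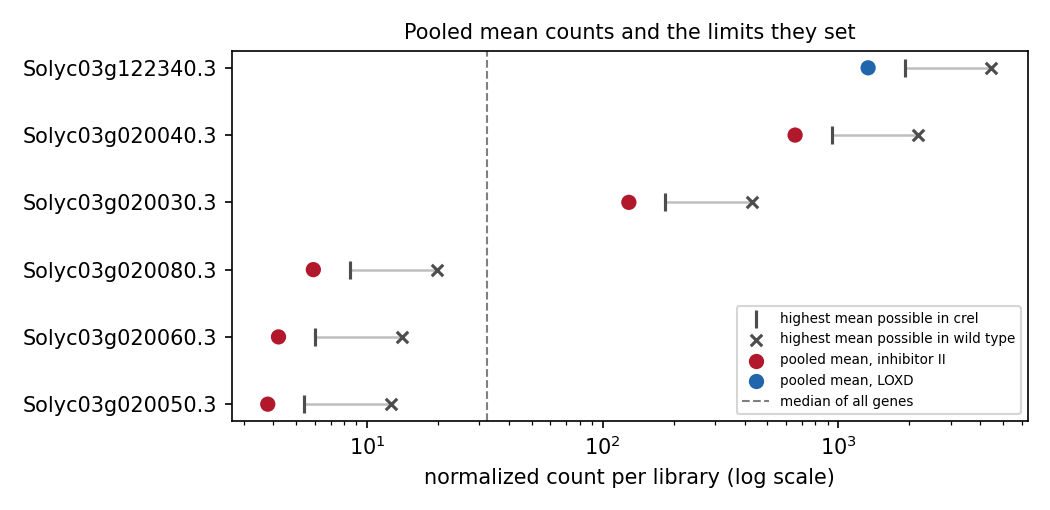
Pooled mean normalized count of the 6 genes found (filled points, horizontal log axis in normalized counts per library, inhibitor II genes in red and *LOXD* in blue), with the highest mean that the *crel* libraries (bar) and the wild-type libraries (cross) could have had. *LOXD*, Solyc03g020040.3 and Solyc03g020030.3 lie above the median of all genes, 32.3 (dashed line), and the other 3 inhibitor II genes lie below it.

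A pooled mean sets an upper limit on the mean of each genotype, reached if every read came from that genotype alone. For *LOXD* (Solyc03g122340.3) the mean could have been at most 1911 in *crel* and at most 4460 in wild type. For Solyc03g020040.3 the limits were 936.5 in *crel* and 2185 in wild type. For Solyc03g020030.3 they were 184.5 in *crel* and 430.5 in wild type. The limits of the 3 genes with few reads were much lower. Solyc03g020080.3 could have had a mean of at most 8.45 in *crel* and 19.7 in wild type, Solyc03g020060.3 at most 6.01 in *crel* and 14.0 in wild type, and Solyc03g020050.3 at most 5.41 in *crel* and 12.6 in wild type. In neither genotype could the mean of these 3 genes have reached 32.3, the median of the pooled means of all genes. No median within a genotype was available. The limit is higher for wild type because it has fewer libraries, and it carries no information on which genotype was higher. It bounds a mean over libraries and not the value of a single library.

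Other identifiers within 60 of these genes were read from the table to place the cluster members among their numbered neighbours. Around the inhibitor II cluster the table held 9 other identifiers. Of these, 6 had a mean count under 10, against 3 of the 5 cluster members and 35.8% of all genes. Between the members themselves lay Solyc03g020035.1, with a mean normalized count of 2.36, and Solyc03g020070.3, with 5.10. The identifier just before the cluster, Solyc03g020020.3, had 2004, the highest of these 14. The identifiers from Solyc03g020050.3 to Solyc03g020100.2, 3 members among them, all had a mean count under 10. These neighbours were set by identifier number alone, and the deposited table gives no function for them.

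Of the listed inhibitor I genes none had a row, but 3 other identifiers within the same distance did. Solyc09g084465.1, which the study annotates as a wound-induced proteinase inhibitor, had a mean normalized count of 226.3. Solyc09g084450.3 had 54.7 and Solyc09g084460.3 had 7.68. Around the polyphenol oxidase gene, which also had no row, 12 other identifiers did, with a median of 114.3. Of these, 10 had a mean count of at least 10, beside 64.2% of all genes. The highest was Solyc08g074620.2, which the study annotates as a polyphenol oxidase, with a mean normalized count of 1526. None of these genes was on the list, and they are given only as numbered neighbours of the genes that could not be read.

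**Figure D2:**
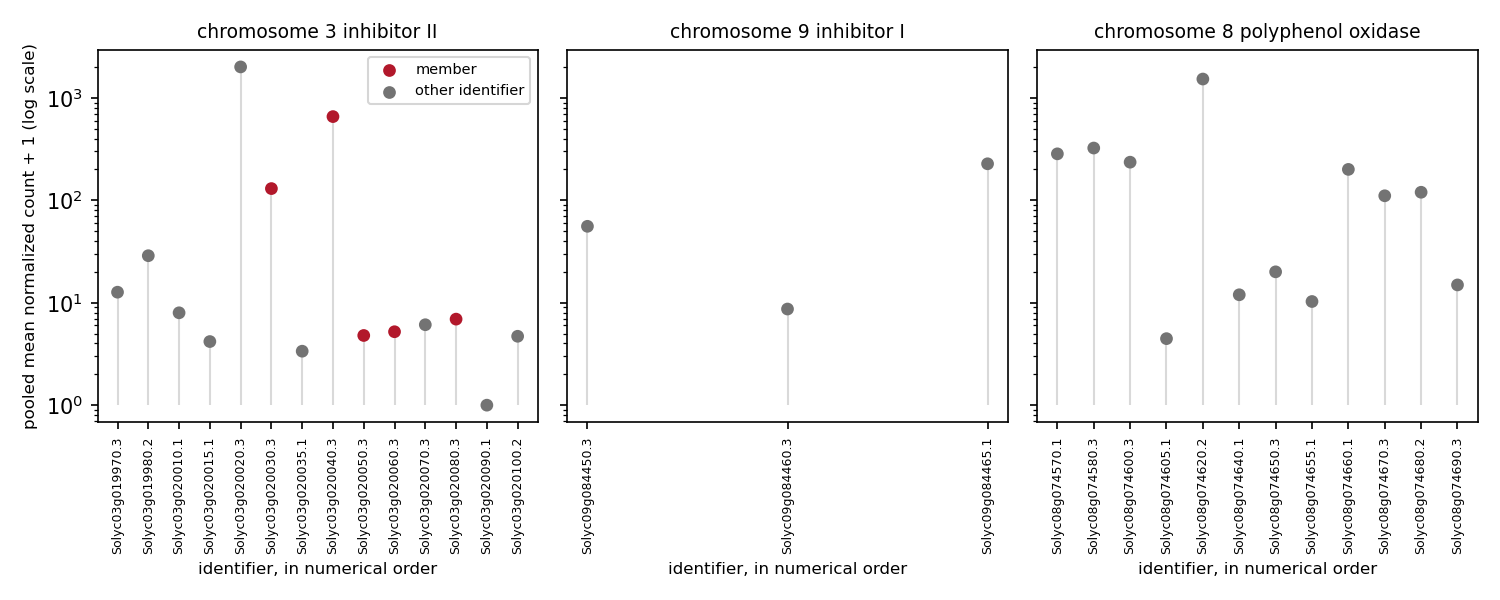
Pooled mean normalized count plus 1 (vertical log axis) of every identifier of the table within 60 of the listed genes, in numerical order, for the inhibitor II cluster, the inhibitor I genes and the polyphenol oxidase gene (listed genes in red, others in grey). Listed genes appear only in the panel of the inhibitor II cluster, where Solyc03g020040.3 and Solyc03g020030.3 stand above the other 3.

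A list of 20 identifiers had also been drawn up from general knowledge for jasmonate synthesis, jasmonate perception with its repressors, and other products of the wound response. The files do not pair these identifiers with names, so they are given as counts. The table held 19 of them, *LOXD* included, and all 19 had a mean count of at least 10 and above the median of the table, beside 64.2% of all genes at 10 or more. The list was drawn up with earlier results of these data known, so nothing particular to it is read from this count. The 6 identifiers for synthesis had mean counts from 123.7 to 1338 with a median of 638.2, the 9 for perception and repression had 62.2 to 1886 with a median of 811.2, and the 4 found for other wound products had 48.3 to 3711 with a median of 329.0. These are mean normalized counts over pooled libraries and say nothing of a response to *crel*.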

How the data were processed

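RNA-seq reads were trimmed with Trimmomatic, mapped to SL3.0 with STAR and counted per gene with featureCounts by the authors, who ran DESeq2 on the 7 mutant and 3 wild-type libraries together. The deposited table gives, per gene, a mean normalized count, a signal the authors averaged over 10 libraries after division by size factors. Its other columns hold the authors' own comparison (log2 fold change, standard error, statistic, p-values and a call) and were not used. No library has a column, so depth per library, replicate spread and the planned test on counts were not available, and no comparison was made. The authors also deposited H3K27me3 peak positions per replicate, with sequence names of SL2.40. No coordinates of the listed genes on that build were held, so the peaks were not used. The study's methods give SL3.0 for its ChIP-seq mapping, and the study lists genes associated with lost and gained sites. That assignment of sites to genes was not used here. The RefSeq gene table (SLM_r2.1) carries no identifiers of this kind.

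Genes were matched by identifier without its version. The named genes were the listed genes, the identifiers within 60 of the 3 numbered clusters, and the jasmonate list, which is given only as counts and ranges because its identifiers are not annotated in the sources used here. The listed genes and the lists were chosen with earlier results of these data known. Percentiles are the share of genes with a lower mean count, and the limit for a genotype is the sum over 10 libraries divided by its 7 *crel* or 3 wild-type libraries. The rank calculation was tested on simulated data. The limit was also checked on simulated counts, but it holds by arithmetic for any counts. Python 3.11.15, numpy 2.4.6, pandas 2.3.3 and matplotlib 3.10.9 were used.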

Additional observations from a re-analysis of the deposited data

How the results depend on the processing

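Against all genes of the table, 3 of the 6 genes found had a mean count above the median. The number was also 3 among genes with a mean above 0. Among genes with a mean of at least 10, where the median was 169.2, it was 2 of the 3 genes left, because Solyc03g020030.3 then ranked above 44.5% of genes instead of 64.4%. Alternatives for the test on counts and for peaks at the genes could not be run, since no library has a column of counts and no coordinates on the build of the peaks were held. No replicate could be left out for the same reason. No paired analysis was possible because the only usable column pools all libraries. The pooled mean limits what can be shown to a level. The difference between *crel* and wild type was not examined.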
